A study of Mus musculus with 24 samples.

Results

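L-1210 and M1 are mouse leukaemia lines, the first labelled lymphocytic and the second myeloid, and their miRNAs were set against each other over all miRNA assays of TaqMan low density arrays. These arrays are cards of small quantitative reverse-transcription PCR wells, 1 assay to a well. The comparison took the 3 replicates of L-1210 and the 3 of M1, 6 of the 12 replicates of the series, each run on a card A and a card B. That is 12 of 24 deposited samples. The other groups were CT-BM (mouse bone marrow cells) and PYS (a teratocarcinoma line). They served for the estimate of spread, for alternative normalizations over all 12 replicates, and for some detection counts and levels given beside those of the lines. No treatment was applied, and the lines were taken from culture at passage 3. Per the labels, L-1210 grew in 10% serum with a doubling time of 50 h, and M1 in 10 to 20% serum with 25 to 50 h. Each side is a single line, so line, lineage and culture conditions cannot be told apart. Whether replicates were separate cultures is not stated in the labels, so a p-value here measures the spread between samples alone, and that spread may be technical.

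A miRNA is cut from a hairpin precursor, and either arm of the hairpin can be loaded into Argonaute proteins, which it guides to messenger RNAs to lower their translation and stability. Targets are chosen mainly by the seed, bases 2 to 8 from the 5′ end, so miRNAs with 1 seed form a family with overlapping targets. In blood, miR-223 is known as a miRNA of granulocytes and monocytes, miR-150 and miR-342 as miRNAs of mature lymphocytes, and miR-142 as present in nearly all blood cells. Genes of miRNAs within the Hox clusters, such as miR-10a and miR-196b, are often active in leukaemias together with the Hox genes beside them.

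The mature sequences of the miRNAs that separated the lines most, and of their closest relatives, are given first, 5′ to 3′, with the seed in capitals. They are from RefSeq (GRCm38.p6), in which 210 of the 285 mouse-named assays tested had a match. An asterisk marks the arm of a hairpin that is usually the less abundant one. The first set holds miRNAs higher in M1.

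miR-221: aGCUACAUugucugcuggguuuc
miR-222: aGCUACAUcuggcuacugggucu
miR-223: uGUCAGUUugucaaauacccca
miR-196b: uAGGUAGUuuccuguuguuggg
miR-340-5p: uUAUAAAGcaaugagacugauu
miR-342-3p: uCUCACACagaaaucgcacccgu
miR-16: uAGCAGCAcguaaauauuggcg
miR-195: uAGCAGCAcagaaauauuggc
miR-149: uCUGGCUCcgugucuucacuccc

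The second set holds miRNAs higher in L-1210.

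miR-31: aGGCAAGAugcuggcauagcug
miR-31*: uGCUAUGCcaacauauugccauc
miR-10a: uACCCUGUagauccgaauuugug
miR-10b: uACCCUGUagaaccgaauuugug
miR-139-5p: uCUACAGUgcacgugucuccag
miR-139-3p: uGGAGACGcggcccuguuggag
miR-365: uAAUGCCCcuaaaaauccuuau
miR-9: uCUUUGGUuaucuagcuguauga
miR-127: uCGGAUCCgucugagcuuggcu

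The third set pairs miRNAs that share a seed and yet were higher in different lines, or were called for 1 member alone. In each pair the capitals are the same and the differences lie in the lower-case bases.

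miR-34a: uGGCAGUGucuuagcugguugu
miR-449a: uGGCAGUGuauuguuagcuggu
miR-449c: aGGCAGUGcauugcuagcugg
miR-193: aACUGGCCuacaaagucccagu
miR-193b: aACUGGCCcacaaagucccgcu
miR-125b-5p: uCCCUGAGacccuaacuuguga
miR-351: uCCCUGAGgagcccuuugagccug
miR-28: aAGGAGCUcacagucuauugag
miR-708: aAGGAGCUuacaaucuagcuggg
miR-103: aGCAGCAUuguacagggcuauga
miR-107: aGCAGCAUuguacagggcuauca

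Each well gives a threshold cycle (Ct), 1 cycle lower for every doubling of starting RNA, and 50.9% of the 4484 wells of these lines were undetermined. A Ct above 35 counted as not detected. Levels are the negative delta Ct, a log2 value against the mean Ct of 3 small RNAs (MammU6, snoRNA135, snoRNA202) read on that replicate's same card. Replicates of an assay had a median SD of 0.38 in L-1210 and 0.30 in M1 on that scale. The controls were not equal between the lines: on card A, MammU6 came up at a mean Ct of 10.8 ± 0.637 (SD, n = 3) in L-1210 and 7.91 ± 0.641 in M1, a difference of 2.91 cycles. On the same card snoRNA202 differed by 0.037 cycles and snoRNA135 by 1.11, and on card B MammU6 differed by 1.28. In M1 replicate 2 the MammU6 wells of card A spread over 3.23 cycles. The exact two-sided permutation p for MammU6 was 0.1 on either card, the smallest that 3 against 3 can give. Of miRNA assays, 48.6% ± 0.748 were detected in L-1210 and 44.7% ± 0.383 in M1 (SD, n = 3; exact two-sided permutation p = 0.1), and every L-1210 replicate lay above every M1 replicate.

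The lines shared most of what they expressed, but differed at many single miRNAs and by large factors. Of 584 assays, 236 were detected in every replicate of both lines and 275 in none of either. Another 45 were detected in every replicate of L-1210 and none of M1, 21 the other way round, and 7 in only some replicates. CT-BM also detected 30 of the 45 in all its replicates and PYS 24, and of the 21 they detected 15 and 10. Tested were the 306 assays detected in every replicate of at least 1 line. Of these, 171 differed at least 2-fold at an adjusted p under 0.05 (limma, Benjamini-Hochberg), which is 55.9% of the assays tested. They divide into 77 higher in L-1210 (25.2%) and 94 higher in M1 (30.7%), and the replicates of the lines did not overlap for 213 assays (69.6%). Of the calls, 64 are bounds, because 1 line had no detected replicate (44 of the 77 and 20 of the 94). Such a fold is computed at the Ct limit and written as at least that many fold. A bound was tested only through the line that detected it, against values set at that limit. Its direction was therefore fixed by the filter, and its adjusted p is not given as support. Among the 107 calls measured on both sides, 24 were at least 10-fold and 7 at least 100-fold.

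**Figure D1:**
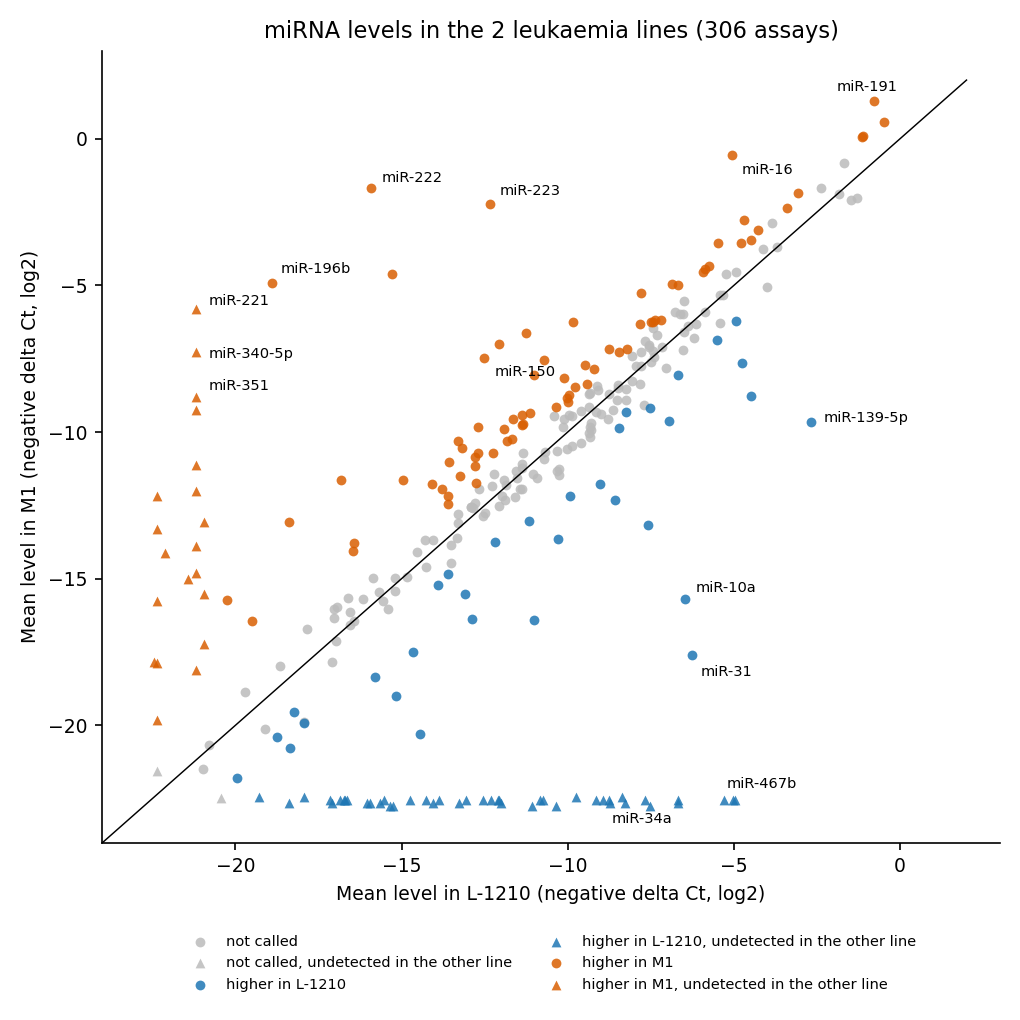
Mean level of each of the 306 assays tested in L-1210 (horizontal) and M1 (vertical), as negative delta Ct on a log2 scale, with triangles for assays undetected in 1 line (set at the Ct limit) and the line of equal level drawn. Most abundant miRNAs lie near the line of equal level, while miR-222, miR-223 and miR-196b stand far above it and miR-31, miR-10a and miR-139-5p far below.

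The split of calls between the lines moved with the control RNA. Scaled by MammU6 alone, 153 were higher in L-1210 and 43 in M1, whereas scaled by snoRNA202 alone they were 61 and 180. The median log2 difference of all assays tested, L-1210 minus M1, was -0.16, and it was 1.23 by MammU6 alone, -0.31 by snoRNA135 alone, -1.33 by snoRNA202 alone, -0.80 by both snoRNAs, 0.41 by the mean of common assays (those that all 12 replicates detected) and -0.29 with quantiles. Called in the same direction under all 7 scalings were 99 assays (32.4%), 56 higher in L-1210 and 43 in M1, of which 35 were measured in both lines. Small differences can therefore lose their call or turn, and the count of scalings is given where it matters.

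**Figure D2:**
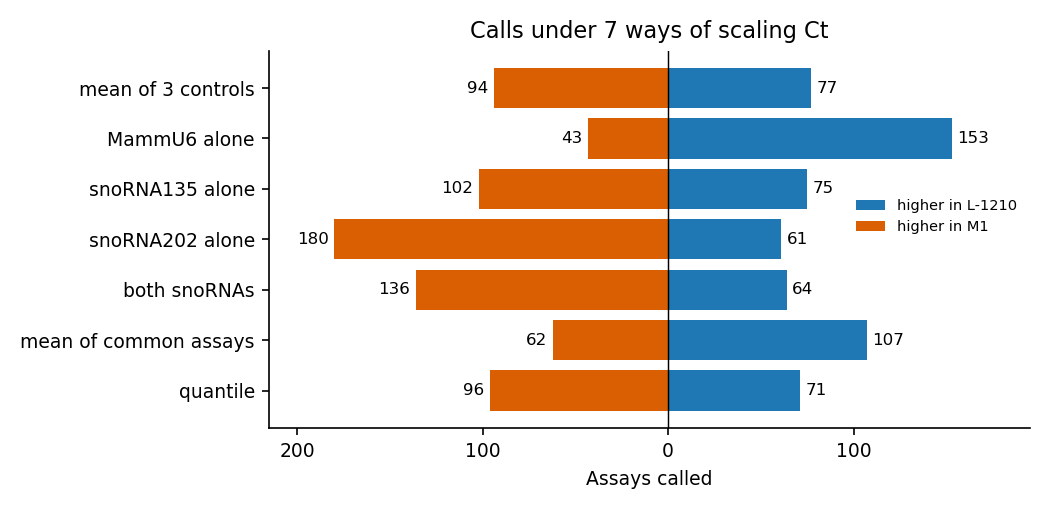
Number of assays called higher in L-1210 (right of 0) and higher in M1 (left of 0), of 306 tested, under each of 7 ways of scaling Ct. The split runs from 153 against 43 with MammU6 alone to 61 against 180 with snoRNA202 alone.

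The myeloid and the lymphocyte markers both separated the lines, and both were higher in M1. MiR-223 came up at Ct 15.25, 14.36 and 14.41 in the 3 M1 replicates and at 25.61, 26.89 and 25.97 in L-1210. It came up at least 10 cycles earlier in every M1 replicate than in any of L-1210, and the levels were 1122-fold apart (log2 difference -10.13 ± 0.28, SE, n = 3 against 3; limma adjusted p = 2.70e-12). Against that, miR-150 read Ct 25.97, 26.78 and 26.23 in L-1210, the line labelled lymphocytic, and 20.33, 19.77 and 19.66 in M1. All M1 replicates lay above all of L-1210, and the miRNA was 33.2-fold higher in the myeloid line (-5.05 ± 0.22; limma adjusted p = 3.43e-10). The other lymphocyte marker, miR-342-3p, followed it, with Ct 26.62, 27.97 and 26.71 in L-1210 and 23.06, 22.76 and 22.48 in M1, 7.91-fold higher in M1 (limma adjusted p = 2.14e-07). Both kept that direction under all 7 scalings, so the lymphocyte markers go against the order that the line labels would give. Both were detected in every replicate of L-1210. In CT-BM, levels were 1.33 ± 0.10 for miR-223 and -1.74 ± 0.11 for miR-150, above those of either line, where miR-223 was at -2.22 ± 0.17 in M1 and miR-150 at -7.47 ± 0.06.

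Other miRNAs of the blood differed little or in mixed directions. The blood-wide miR-142-3p read Ct 18.95, 17.21 and 17.25 in L-1210 and 17.57, 17.98 and 17.02 in M1, overlapping ranges (1.08 ± 0.55; limma adjusted p = 0.104), and miR-142-5p was not called either. MiR-155, which is induced on activation of lymphocytes and macrophages, read Ct 16.94 to 18.55 and 15.96 to 16.49, with a log2 difference of -0.02 ± 0.30 (limma adjusted p = 0.966). MiR-181a, of lymphoid progenitors, was not called (-0.85 ± 0.57), nor was miR-181c. Of the 5 lymphoid assays tested, 2 were higher in L-1210 and 2 in M1, with a median of -0.02 beside -0.16 over all assays. The 2 higher in L-1210 were both arms of 1 hairpin, lying in the LPP gene and known from germinal-centre B cells: miR-28 at 13.3-fold (3.74 ± 0.28; limma adjusted p = 7.32e-08) and miR-28* at 6.33-fold. Of the 8 myeloid assays, 4 were higher in M1 and 2 in L-1210, with a median of -1.08, where over all assays tested 30.7% were higher in M1 and 25.2% in L-1210. Besides miR-223, those in M1 were miR-146a and miR-146b, feedback inhibitors of NF-kappaB signalling, and miR-146b*. MiR-146a was 2.32-fold and miR-146b 2.66-fold higher in M1, and with MammU6 alone both turned to slightly higher in L-1210. Both arms of miR-22 were higher in L-1210, miR-22 at 3.64-fold and miR-22* undetected in M1.

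Markers of other cell types were present in part. The erythroid miR-451 and miR-486 were not detected in every replicate of either line, and liver miR-122 in no replicate of either. Of the 2 neuronal markers, miR-124 was detected in no replicate, whereas miR-9 was detected in every replicate of both lines and called 7.50-fold higher in L-1210. Both endothelial assays, miR-126-3p and miR-126-5p, were detected throughout and not called, with a summed level of -5.08 to -4.58 over the L-1210 replicates and -4.54 to -4.26 over those of M1. Of 6 epithelial markers, 4 were detected in every replicate of L-1210 and 5 in M1, with summed levels of -8.49 to -8.39 and -8.82 to -8.39, and miR-205 in neither. The epithelial miR-203 was seen in M1 only (-3.72, a bound). Of 5 stromal markers, miR-143, miR-199a-5p and miR-214 were undetected in both lines, and miR-145 was detected in M1 only. The remaining stromal marker, miR-199a-3p, was detected in every replicate of both lines and not called (0.20 ± 0.36). Other markers were called towards L-1210. Of 4 muscle markers 2 were tested and 1, miR-133a, was called (8.68, a bound, undetected in M1). The islet miR-375 was higher in L-1210 (1.26 ± 0.31) and turned with snoRNA202 alone and with quantiles. Of 12 markers of embryonic stem cells 5 were tested and 2 called, miR-292-3p, undetected in M1 (3.15, a bound), and miR-302a (1.84 ± 0.67). MiR-302a was not detected in every replicate of both lines and was called in 3 of the 7 scalings. Called were thus 50% of the muscle and 40% of the embryonic stem cell assays tested, below the 55.9% over all assays. The part of other cell types in the results was not tested.

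**Figure D3:**
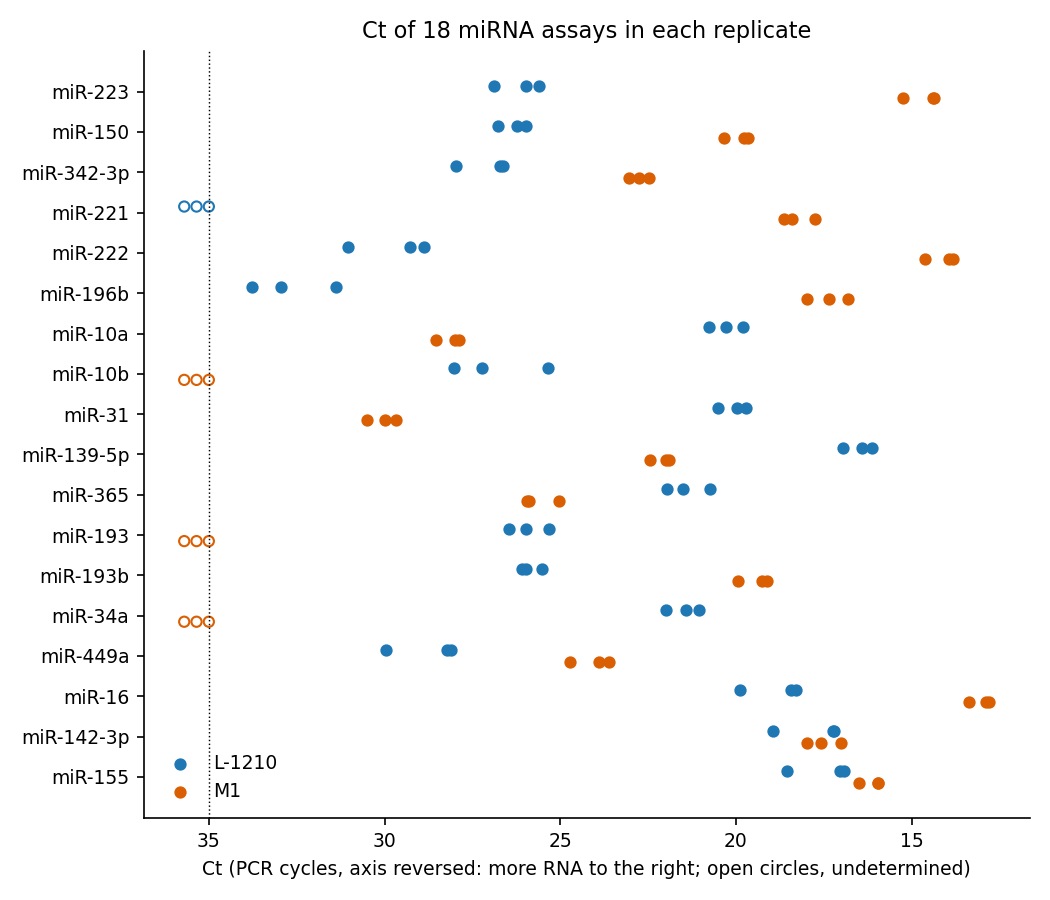
Ct of 18 assays in each of the 3 replicates of L-1210 and of M1, with the axis reversed so that more RNA lies to the right, and open circles at the limit of 35 (spread sideways to be seen) for undetermined replicates. The 3 replicates of a line mostly lie close together, with a wider spread for miR-10b, miR-196b and miR-222 in L-1210. The lines overlap only for miR-142-3p.

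The pair miR-221 and miR-222, which comes from neighbouring genes, shares a seed and represses the cell-cycle inhibitor p27 and the receptor KIT, gave the widest difference towards M1. MiR-222 came up at Ct 14.61, 13.94 and 13.84 in M1 and 29.27, 31.03 and 28.86 in L-1210. That is 19361-fold (-14.24 ± 0.36, SE, n = 3 against 3; limma adjusted p = 1.22e-12). MiR-221 read Ct 18.40, 18.64 and 17.76 in M1 and was undetermined in all 3 replicates of L-1210, a bound of at least 42653-fold (-15.38). In CT-BM, miR-222 was at a level of -1.87 ± 0.10, close to the -1.67 ± 0.10 of M1, and L-1210 was at -15.91 ± 0.73.

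The miRNAs of the Hox clusters went opposite ways in the lines. MiR-196b, from the HoxA cluster, read Ct 17.99, 16.80 and 17.35 in M1 and 31.38, 33.76 and 32.95 in L-1210, near the limit of detection. It was 15993-fold higher in M1 (-13.97 ± 0.46; limma adjusted p = 1.62e-11). MiR-10a, from the HoxB cluster, was abundant in L-1210 at Ct 20.77, 20.30 and 19.79 and scarce in M1 at 28.53, 27.99 and 27.87. The ranges lay more than 7 cycles apart, and the fold was 588 in favour of L-1210 (9.20 ± 0.27; limma adjusted p = 4.10e-12). MiR-10b, from the HoxD cluster and 1 base different from miR-10a in the middle of the molecule, read Ct 28.01, 27.23 and 25.36 in L-1210 and was undetected in M1 (at least 718-fold). Of 4 Hox-cluster assays tested, 2 were higher in L-1210 (25.2% over all assays), 1 in M1 (30.7% over all) and 1, miR-196a*, was not called. All 3 calls held under all 7 scalings. MiR-100, a relative of miR-10 by sequence and known from blood stem cells, was likewise found in L-1210 only, at Ct 26.92 and 25.28 in the 2 replicates present (at least 1217-fold; n = 2 against 3). It was the widest difference among 9 stem and progenitor assays, of which 2 were higher in L-1210 and 1 in M1, fewer than the 55.9% called over all assays, with a median of 0.02. That split turned with the scaling, from 5 higher in L-1210 and 0 in M1 with MammU6 alone to 1 and 6 with snoRNA202 alone.

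Among miRNAs measured in both lines, miR-31 led the increases in L-1210. Known as a suppressor of metastasis and silenced in adult T-cell leukaemia, it read Ct 19.97, 20.50 and 19.72 in L-1210 and 29.68, 29.98 and 30.49 in M1, 2592-fold apart (11.34 ± 0.30; limma adjusted p = 1.55e-12). Its other arm, miR-31*, gave Ct 21.20, 21.04 and 20.53 in L-1210 and nothing in M1 (at least 21183-fold). Both arms of the miR-139 hairpin, which lies in the phosphodiesterase gene Pde2a, did the same. MiR-139-5p read Ct 16.40, 16.96 and 16.13 in L-1210 against 22.44, 21.98 and 21.90 in M1 (125-fold, 6.96 ± 0.22; limma adjusted p = 1.17e-11), which made it the tenth highest miRNA of L-1210. MiR-139-3p read Ct 21.00, 20.60 and 19.83 in L-1210 and was undetected in M1 (at least 60054-fold). Further down, the neural miR-9 was 7.50-fold and miR-9* 6.59-fold higher in L-1210, at Ct 17.87 to 19.07 against 19.46 to 20.52 for miR-9. MiR-182, first known from sensory organs, was 14.3-fold higher (3.84 ± 0.36) from low levels, Ct 28.61 to 29.39 against 30.48 to 31.96, and lost its call in 1 of the 7 scalings.

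On the side of M1, both arms of miR-340 were found in that line alone. MiR-340-5p read Ct 19.99, 19.94 and 19.24 in M1 and miR-340-3p 21.91, 21.88 and 21.32, and every L-1210 replicate was undetermined for both (at least 15531-fold and 3944-fold). The 2 arms agree in direction and are measured by separate assays. MiR-149 came up at Ct 18.81 to 19.28 in M1 and 23.54 to 24.50 in L-1210 (24.6-fold, -4.62 ± 0.26; limma adjusted p = 1.34e-08). MiR-592 was 39.6-fold and miR-184 23.3-fold higher in M1. For miR-184 the L-1210 replicates, at Ct 33.67 to 34.53, were at the edge of detection. The groups did not overlap for any of these.

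A set of miRNAs with 1 seed did not always move as 1. The 210 matched assays held 30 seed families of 2 or more tested members. In 5 families members were called in both directions, in 6 only towards L-1210, in 12 only towards M1, and in 7 none was called. These counts include bounds. In each of the 5 families 1 side was a bound, namely miR-34a, miR-193, miR-351, miR-708 or miR-20b*. The direction of a bound was fixed by the filter, so none of the 5 holds opposite calls measured in both lines. The widest gap was in the family of miR-34, targets of p53 that arrest the cell cycle, and miR-449, which shares its seed GGCAGUG and is known from ciliated cells. MiR-34a read Ct 21.98, 21.42 and 21.06 in L-1210 and was undetected in all 3 replicates of M1 (at least 29852-fold, 14.87). MiR-449a was the reverse, Ct 24.72, 23.61 and 23.90 in M1 and 28.12, 29.97 and 28.21 in L-1210 (10.1-fold, -3.34 ± 0.38; limma adjusted p = 6.18e-06). Its neighbour miR-449c, within 10 kb of it, was 36.5-fold higher in M1. The other miR-34 hairpins sided with miR-34a, miR-34b-3p at 4.72-fold and miR-34c, in 2 replicates of each line, at least 23.1-fold higher in L-1210, while the other arm of that hairpin, miR-34c*, was not called (0.36 ± 0.30). MiR-34a, miR-449a and miR-449c kept their calls under all 7 scalings.

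The pair miR-193 and miR-193b, with seed ACUGGCC and 3 of 22 bases different, divided in the same way. MiR-193 read Ct 25.97, 26.46 and 25.32 in L-1210 and was undetected in M1 (at least 1385-fold). MiR-193b read Ct 25.96, 26.10 and 25.53 in L-1210 and 19.95, 19.26 and 19.13 in M1, 33.4-fold higher in M1 (-5.06 ± 0.19; limma adjusted p = 8.01e-11). Both paralogs were thus detected in L-1210 and miR-193b alone in M1. The opposite arm miR-193* was 42.0-fold higher in L-1210, with Ct 23.22 to 24.03 against 28.18 to 29.06. Each of the pair has a miR-365 gene on its chromosome, and the mature miR-365 of both genes, which 1 assay reads together, was 47.4-fold higher in L-1210 (Ct 21.50, 21.98 and 20.73 against 25.94, 25.88 and 25.03; 5.57 ± 0.23; limma adjusted p = 1.48e-10). So miR-365 and its near neighbour miR-193b, within 10 kb, were called in opposite directions.

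In the family with seed CCCUGAG, miR-351 was detected in M1 alone at Ct 21.52, 21.26 and 20.96 (at least 5399-fold). MiR-125b-5p, a miRNA of blood stem cells that can drive leukaemia, was near the limit in both lines, Ct 32.34, 33.99 and 31.35 in L-1210 and 32.88 and 33.02 in the 2 replicates of M1 present. It was called 3.13-fold higher in L-1210 (1.65 ± 0.45; limma adjusted p = 0.00731), a call that held in 4 of the 7 scalings and turned to higher in M1 with quantiles (-1.77), and miR-125a-5p was not called. A rat-named assay for miR-351 gave a mean Ct of 26.5 in L-1210 and 23.2 in M1, so it gave a signal in L-1210 where the mouse-named assay did not, and it was 3.90-fold higher in M1. In the family with seed AGGAGCU, miR-28 was higher in L-1210 and miR-708 was seen in M1 alone at Ct 28.39, 27.98 and 27.57 (at least 43.0-fold; n = 2 against 3). The fifth such family was that of the star arms miR-20b*, seen in L-1210 alone, and miR-17*, 2.91-fold higher in M1.

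Elsewhere 1 member was called and a close relative was not. MiR-107 read Ct 23.81, 23.72 and 23.25 in M1 and was undetected in L-1210 (at least 1064-fold). MiR-103, which differs from it by 1 base of 23 near the 3′ end, read Ct 23.51, 23.87 and 22.82 in L-1210 and 22.00, 21.66 and 21.59 in M1 (-0.30 ± 0.20; limma adjusted p = 0.214). MiR-18b was seen in L-1210 alone at Ct 27.21 to 29.02, while miR-18a, 2 bases of 23 different, read 21.00 to 21.95 in L-1210 and 18.86 to 19.78 in M1. Whether an assay also reads a near-identical relative was not tested.

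**Figure D4:**
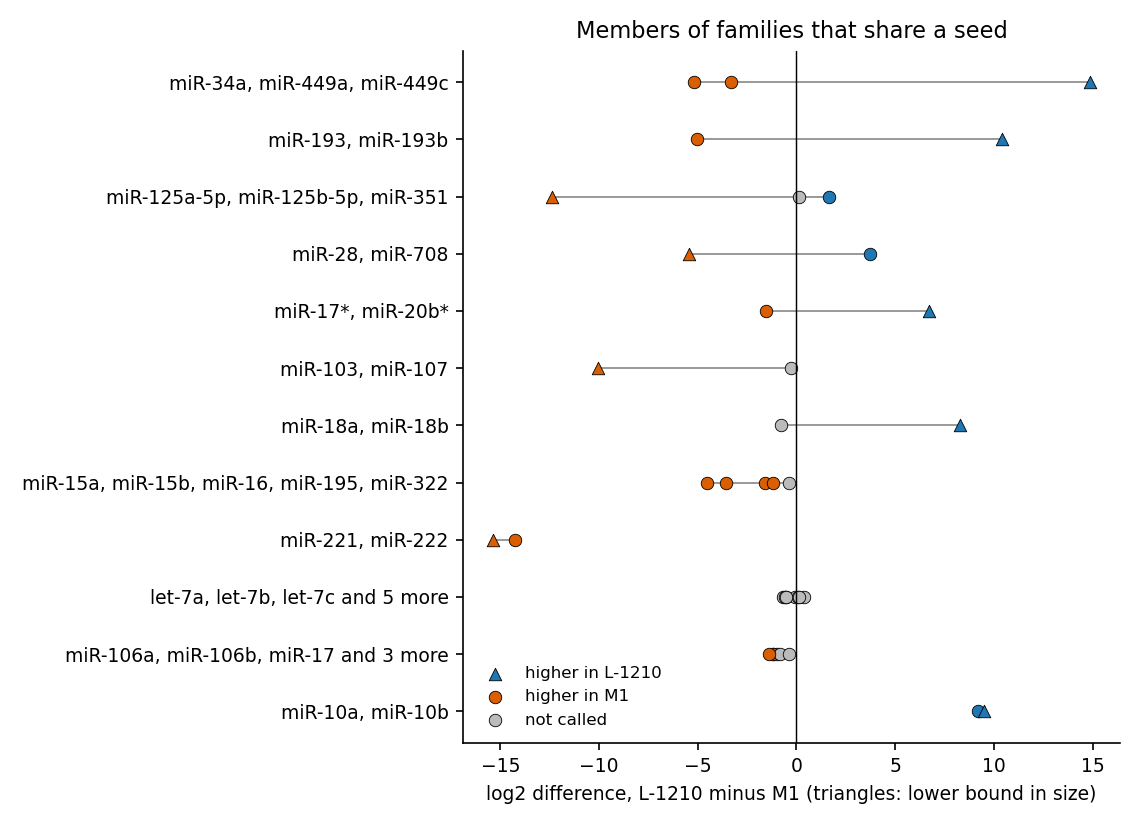
Log2 difference, L-1210 minus M1, of each tested member of 12 families that share a seed, with 1 family per line, triangles for members undetected in 1 line and colour for the call. The 5 families at the top hold members called on both sides of 0, with a bound on 1 side of each. The 8 let-7 members lie between -0.70 and 0.39.

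Several large families were read by many assays on the cards. MiR-15, miR-16 and their relatives hold back cell division and repress BCL2. Of 9 such assays 8 were higher in M1 (30.7% over all assays) and 1 was not called, with a median of -1.75 beside -0.16 over all. With MammU6 alone 3 were higher in M1 and 1 in L-1210, 6 were higher in M1 by the common assays, and 7 with quantiles. MiR-16 itself, the fifth highest miRNA of M1, came up at Ct 13.36, 12.88 and 12.79 there and at 18.43, 19.90 and 18.30 in L-1210. It was 22.9-fold higher in M1 (-4.52 ± 0.26; limma adjusted p = 4.91e-09), a call made in all 7 scalings. MiR-195, from another gene but 2 bases of 21 different from miR-16, was 12.1-fold higher, whereas miR-15a and miR-15b, which come from the same clusters as miR-16, were 3.06-fold and 2.30-fold higher. MiR-322 was not called (-0.40 ± 0.20).

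Members of the growth-promoting miR-17-92 cluster and its paralogs were among the highest readings of both lines. Of 20 assays, 11 were higher in M1 (30.7% over all assays) and 3 in L-1210 (25.2% over all), with a median of -1.03. Except for the 3 bounds in L-1210 (miR-18b, miR-20b* and miR-92a*) the differences were small, such as 2.32-fold for miR-17 (Ct 14.70, 15.53 and 14.55 in L-1210 and 12.80, 12.18 and 12.10 in M1), and with MammU6 alone 0 were higher in M1 and 4 in L-1210. Relative to the controls, the 5 highest in L-1210 were miR-19b, miR-191, miR-17, miR-106a and miR-709, and in M1 miR-191, miR-19b, miR-17, miR-106a and miR-16. PCR assays differ in efficiency, so this order is that of readings and not of molecules. MiR-191 was at 1.28 ± 0.02 in M1 and -0.78 ± 0.59 in L-1210. Of 8 assays of the miR-30 family, which also restrains growth, 6 were higher in M1 (30.7% over all assays), with a median of -1.12. But 0 were when MammU6 alone set the scale, and 1 when common assays did. All 8 mature let-7 miRNAs, regulators of differentiation that repress RAS and MYC, were not called. With snoRNA202 alone, however, 11 of the 12 let-7 assays were higher in M1, with both snoRNAs 7, and with MammU6 alone 3 were higher in L-1210 and 2 in M1. The 2 calls of that list of 12 on the main scale, both towards M1, were star arms: let-7a* at 4.08-fold and let-7d* in M1 alone at Ct 24.14, 25.00 and 24.38 (at least 1172-fold). Its partner let-7d read Ct 22.95, 22.18 and 21.87 in L-1210 and 21.09, 21.82 and 21.20 in M1 (0.39 ± 0.35).

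A pair of imprinted loci held calls towards L-1210 alone on the main scale, most of them bounds. The Sfmbt2 locus is a large intronic cluster of repeated hairpins, maternally silenced and known from placenta and embryonic stem cells. Of its 12 tested assays (18 on the cards), 9 were higher in L-1210 (25.2% over all assays), 0 in M1 and 3 were not called. The median was 13.59 beside -0.16 over all assays. All 9 were undetected in M1, so each was tested through L-1210 alone. The direction of each was fixed by the filter, and the median rests on values set at the Ct limit. MiR-467b read Ct 18.65, 19.44 and 18.26 in L-1210, the largest bound of any assay at 194823-fold (17.57). MiR-467c read Ct 18.54 to 18.98, miR-467a 18.75 to 19.44, miR-297a* 18.83 to 19.77 and miR-669a 22.22 to 22.98. The opposite arms behaved otherwise. MiR-467a* read Ct 17.80, 18.20 and 17.95 in L-1210 and 17.75, 17.79 and 17.47 in M1 (-0.01 ± 0.28), and miR-467b* and miR-466d-3p likewise were detected in every replicate of both lines and not called. Those sequences occur in many near-identical copies, so a reading cannot be assigned to 1 hairpin. The same 9 were called under all 7 scalings. In PYS none of miR-467a, miR-467b and miR-467c was detected, and in CT-BM all were.

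The Dlk1-Dio3 locus, expressed from the maternal chromosome, holds the largest number of miRNAs on the cards. Of 64 assays, 17 were tested, and 12 were higher in L-1210 (25.2% over all assays), 0 in M1 and 5 not called, with a median of 4.28. With snoRNA202 alone 11 were higher in L-1210 and 3 in M1, and with quantiles 8 and 3. Levels were low, and 8 of the 12 were undetected in M1 and so tested through L-1210 alone. The median of the list is such a bound. MiR-127, from its beginning, read Ct 29.66, 28.98 and 28.57 in L-1210 (at least 178-fold; n = 3 against 2), miR-379 28.68 to 30.00 (at least 131-fold), miR-411 28.44 to 29.75 and miR-136 30.41 to 31.01. MiR-494 was measured in both lines, Ct 27.69, 26.98 and 25.99 in L-1210 and 27.69, 29.00 and 27.27 in M1 (5.47-fold, 2.45 ± 0.50; limma adjusted p = 0.000905). MiR-409-3p, with Ct 30.00, 28.94 and 26.47 against 30.05 and 29.49 in 2 replicates of M1, was 7.19-fold higher. MiR-381, detected in 1 of 3 replicates of M1 and in both present of L-1210, was called at 5.85 ± 1.77 (limma adjusted p = 0.0138) and lost its call when L-1210 replicate 2 or 3 was left out.

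**Figure D5:**
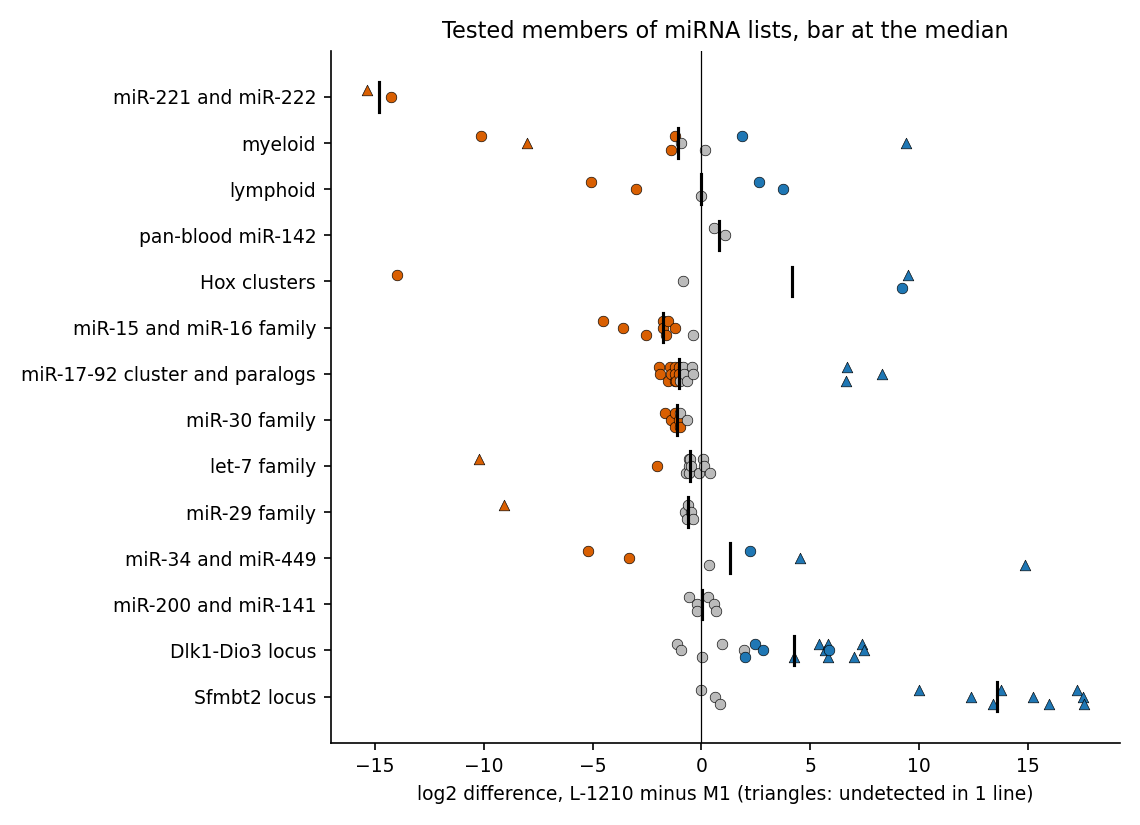
Log2 difference, L-1210 minus M1, of the tested members of 14 lists of miRNAs, coloured by call (blue, higher in L-1210; orange, higher in M1; grey, not called), with triangles for members undetected in 1 line and a bar at each list's median. The Sfmbt2 and Dlk1-Dio3 members lie mostly to the right, with medians of 13.59 and 4.28 that rest on bounds. The miR-15 and miR-16 family lies to the left at -1.75.

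The 2 arms of a hairpin, which arise from 1 transcript and are read by separate assays, were paired by name. In 67 pairs of mouse-named assays both arms were tested. In 26 both were called, in 23 only 1 arm and in 18 neither. Of the 26, 24 went the same way and 2 opposite ways. The 26 include pairs with a bound in at least 1 arm: miR-139, miR-146b, miR-193, miR-22, miR-31, miR-340, miR-455, miR-582 and miR-92a. The direction of a bound was fixed by the filter. The 2 pairs that went opposite ways were miR-135a and miR-92a. MiR-135a was higher in M1 (-3.04 ± 0.54) and miR-135a* in L-1210 (3.36 ± 0.42). MiR-135a was not detected in every replicate of both lines, so its difference includes values set at the Ct limit. It was called in 6 of the 7 scalings. MiR-92a was higher in M1 (-1.03 ± 0.23), a call made in 4 of the 7 scalings, where miR-92a* was seen in L-1210 alone (6.63, a bound). MiR-92a turned to higher in L-1210 with MammU6 alone and with quantiles. Neighbouring genes were counted for the 226 of 285 mouse-named assays that could be placed by symbol. Those left out include miR-18a, miR-92a, miR-92a*, miR-351 and the miR-467 assays of the Sfmbt2 locus. Among 32 clusters of hairpins within 10 kb of each other, 3 held calls in both directions, 8 only towards L-1210, 13 only towards M1, and 8 held none. One of the 3 was the pair of miR-193b and miR-365, and another the X-linked relative of miR-17-92, where miR-106a was 2.32-fold higher in M1 and miR-18b was seen in L-1210 alone. The third was the pair of miR-100, a bound, and let-7a, which was not called. The star arm let-7a* was higher in M1, but it was placed by name at 2 let-7a genes. Only 1 of these lies beside miR-100, and which of them the assay reads was not tested. Several mature miRNAs, among them miR-19b, let-7a and miR-365, come from more than 1 cluster. Of the clusters called only towards L-1210, more than 1 lies in the Dlk1-Dio3 locus, which the 10 kb limit cuts into pieces.

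Assays with a rat name were counted apart: of 21 tested, 7 were higher in L-1210 and 7 in M1, near the 25.2% and 30.7% over all assays. Some carry the name of a mouse-named assay and gave a different reading. For miR-20b, the mouse-named assay read Ct 17.94, 18.46 and 17.40 in L-1210 and 16.37, 16.29 and 15.95 in M1 and was not called (-0.38 ± 0.19), whereas the rat-named assay for its 5p arm was 19.4-fold higher in L-1210 (4.28 on the log2 scale). For miR-28*, the rat-named assay was undetected in M1 and the mouse-named assay was not. For miR-339-3p the names gave 2.58-fold and 2.36-fold, both higher in M1. The pairs were chosen after their values were seen.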

How the data were processed

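Per its headers, the deposited table gives a Ct per well, in PCR cycles, before any normalization to controls (another unit than counts). Per the labels' protocols, total RNA came from a mirVana kit, and after reverse transcription and preamplification the authors ran 40 cycles on a 7900HT system. The detection limit and software are not given in the sources used here. No read depth applies; 3 replicates limit precision.

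Repeat wells were averaged and Ct above 35 or undetermined set to 35. The fit of negative delta Ct used lmFit and eBayes of limma 3.58.1 (R 4.3.3) with 4 group means over 12 replicates. Shares and controls were compared by exact permutation (SciPy 1.17.1). On simulated data with 306 assays, 15 of 30 changed 2-fold, 26 of 30 changed 4-fold and 30 of 30 changed 8-fold were called, and 1 of 216 unchanged. The simulation counted every assay as detected, set none at the Ct limit and put no difference between the lines into the controls. Its counts therefore do not carry over to the bounds or to a shift in the controls.

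The members and lists were chosen with earlier results of these data known. Named were the 12 largest changes each way, 6 bounds each way, up to 4 members per list and the 5 highest of each line. Assays named beyond this rule were picked after seeing their values. Alternatives varied scaling, Ct limit, filter, fit, card and replicates.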

Additional observations from a re-analysis of the deposited data

Results flagged for a closer look

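Y1, a small cytoplasmic RNA that was on both cards and was not used for scaling, was detected on card B in L-1210 at a mean Ct of 21.8 and in M1 at 22.2, but in no replicate of CT-BM on that card. This stands out because on card A all 3 replicates of CT-BM detected it, at a mean Ct of 26.6.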

How the results depend on the processing

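Without a filter on detection 349 of 584 assays were called (254 higher in L-1210). The 584 include 275 assays detected in no replicate of either line, set at the Ct limit on both sides. Those 275 differ between the lines only through the controls, whose mean Ct was 1.35 cycles higher in L-1210 on card A and 0.30 on card B. Among assays detected in every replicate of both lines 104 of 236 were called (31 higher in L-1210). Card A alone gave 110 calls (53 higher in M1) and card B alone 61 (20 and 41). With MammU6 alone 153 were higher in L-1210 and 43 in M1, with snoRNA202 alone 180 were higher in M1, and with the mean of common assays 62. For the share of assays detected in L-1210 and M1, the difference in percent was 4.98 on card A and 1.97 on card B, beside 3.90 over both. Leaving out each replicate gave 164 to 182 calls, and 150 of the 171 calls were kept in all 6 such fits, 21 were lost in at least 1 and 0 changed sign. Replicate numbers did not pair the samples (correlations of -0.16, -0.45 and 0.32 between same-numbered replicates), and with the replicate block 173 were called, 78 higher in L-1210 and 95 in M1.

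Of the 82 assays whose values are given above, these log2 differences changed sign with MammU6 alone (others not listed can turn too): let-7c 0.86, miR-103 1.26, miR-106a 0.34, miR-146a 0.34, miR-146b 0.14, miR-155 1.54, miR-15b 0.36, miR-17 0.34, miR-181a 0.70, miR-18a 0.76, miR-20b 1.18, miR-322 1.16, miR-467a* 0.97 and miR-92a 0.53. With the mean of common assays they were miR-103 0.27, miR-155 0.55, miR-20b 0.19, miR-322 0.17 and miR-467a* 0.56. With quantiles they were miR-106a 0.11, miR-125b-5p -1.77, miR-155 1.11, miR-17 0.12, miR-20b 0.85, miR-375 -0.44, miR-467a* 0.56 and miR-92a 0.26. With snoRNA202 alone they were let-7d -0.93, miR-142-3p -0.24, miR-34c* -0.52 and miR-375 -0.060, and with both snoRNAs let-7d -0.39 and miR-34c* -0.13. With 1 replicate left out, miR-155 ran from -0.31 to 0.26 and miR-467a* from -0.25 to 0.21. The cause was not tested. Every bound rests on the Ct limit of 35 and moves with the scaling, miR-467b from 16.26 to 19.13 and miR-221 from -16.70 to -13.82.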
